A study of Mus musculus with 2 samples.

Results

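The let-7 passenger strands, the 3p arms of the let-7 miRNA hairpins, were examined in small RNA from serum extracellular vesicles (EVs), the membrane particles that cells release into blood. Members were taken by name from the deposited tables, which gave 10 of 1847 rows. The rows stand for 11 named arms, because let-7a-1-3p and let-7c-2-3p have the same sequence and share the row mmu-let-7a-1-3p/mmu-let-7c-2-3p. The mouse prefix mmu is left out below. The study sequenced 1 library from iFIRKO mice and 1 library from control mice. iFIRKO mice carry Adipoq-CreERT2, a tamoxifen-inducible Cre driven in adipocytes, together with Insr flox/flox alleles, so that the insulin receptor is deleted in adipocytes. The control genotype is labelled WT, whereas the methods of the study describe control mice as IR flox/flox without Cre. All mice were male, 7 weeks old at the start, received 100 mg/kg tamoxifen on 5 days in a row, and were sampled 3 days after the last dose. Each library came from pooled serum of several mice, so that differences between animals were not measured. Each direction below follows the labels, and it is uncertain. No miRNA reports the deletion of the receptor, and the text of the study and the labelled tables give opposite orientations over all miRNAs. The sequencing values alone cannot settle this. For miR-16-2-3p the iFIRKO over control ratio was 0.557 as labelled and 1.80 with the labels exchanged. The study reports this miRNA as increased in iFIRKO serum EVs by quantitative PCR of individual samples, which is the direction of the exchanged labels. The labels may thus be exchanged, and each direction below may be the inverse. With the labels exchanged each ratio would become its inverse, for example 0.0444 for let-7f-2-3p, 0.349 for let-7a-2-3p and 1.49 for let-7i-3p, and the counts of members called higher and lower would change places.

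A let-7 hairpin is cut by Drosha and Dicer into a short duplex of a 5p and a 3p arm. The 5p arm is usually kept by Argonaute as the guide that represses mRNAs through its seed, and the 3p arm is mostly degraded as the passenger. The 5p arms of the family share 1 seed, and some are made from several loci, so that reads of let-7a-5p, let-7c-5p or let-7f-5p cannot be traced to a locus. The 3p arms have diverged, and most of them report a single hairpin.

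The mature 3p sequences are shown because they separate the loci and define which members have a seed in common. All 11 names matched RefSeq (GRCm38.p6), and the capitals mark the seed, bases 2 to 8.
mmu-let-7a-1-3p: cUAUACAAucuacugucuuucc
mmu-let-7c-2-3p: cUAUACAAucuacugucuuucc
mmu-let-7b-3p: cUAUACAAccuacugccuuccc
mmu-let-7f-1-3p: cUAUACAAucuauugccuuccc
mmu-let-7f-2-3p: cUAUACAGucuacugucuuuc
mmu-let-7d-3p: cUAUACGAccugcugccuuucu
mmu-let-7e-3p: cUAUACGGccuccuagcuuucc
mmu-let-7c-1-3p: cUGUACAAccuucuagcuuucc
mmu-let-7a-2-3p: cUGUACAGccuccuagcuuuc
mmu-let-7i-3p: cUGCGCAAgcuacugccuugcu
mmu-let-7g-3p: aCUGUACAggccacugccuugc
Of these names, 4 had the seed UAUACAA, which miR-98-3p, the passenger of the related miR-98 hairpin, also carries. The other 7 names each had a seed of their own that no other searched miRNA of the tables had. The guide let-7f-5p, shown for contrast with the seed of the whole 5p family, is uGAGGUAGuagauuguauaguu. All member sequences began with C except let-7g-3p, which begins with A. A C at this position was found in 21.3% of the 1596 listed miRNAs whose sequence was at hand.

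The closest pair of members was let-7a-1-3p and let-7f-2-3p. Counted from the 5′ end of the 3p RNA with the base of let-7a-1-3p first, they differ by A8G over 21 aligned bases, and let-7f-2-3p is 1 base shorter. The next pairs differ at 2 bases. let-7a-2-3p differs from let-7e-3p by G3A and A7G, and from let-7c-1-3p by G8A and C12U, and let-7b-3p differs from let-7f-1-3p by C9U and C13U. How the authors assigned reads with mismatches is not given in the sources used here, so the division of counts between such pairs is uncertain.

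The hairpins lie at 8 places in the genome (GRCm38). let-7a-1-3p (chr13:48538188-48538209), let-7f-1-3p (chr13:48537833-48537854) and let-7d-3p (chr13:48536024-48536045) come from a cluster on the minus strand within exons of the lincRNA 6720427I07Rik. let-7c-2-3p (chr15:85706664-85706685) and let-7b-3p (chr15:85707379-85707400) come from a cluster on the plus strand within exons of Lncppara. let-7f-2-3p (chrX:151912403-151912423) is intronic to Huwe1, a ubiquitin ligase gene on the plus strand, with the miR-98 hairpin 785 bases further on. let-7a-2-3p (chr9:41536777-41536797) lies on the plus strand in an intron of the noncoding transcripts 3110039I08Rik and Gm49317. let-7c-1-3p (chr16:77599717-77599738) lies on the plus strand in an intron of Mir99ahg, let-7e-3p (chr17:17830411-17830432) in an intron of Spaca6, and let-7g-3p (chr9:106178902-106178923) in an intron of Wdr82, each on the strand of its host. let-7i-3p (chr10:122985642-122985663, minus strand) overlaps an exon of the pseudogene D630033A02Rik. GENCODE also lists a miRNA gene on the opposite strand of the let-7e hairpin (Gm25927) and of the let-7f-1 hairpin (Gm24111).

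The values of both tables were whole counts divided by a constant, taken as the depth, of 3817902 in the library labelled control (control EVs) and 2233498 in the library labelled iFIRKO (iFIRKO EVs). Values are given as counts and as CPM, counts per 1000000 of the depth. Counts under 10 appear in the tables only as the lowest value, and no member was at this floor in either library. With 1 library in each group no test between genotypes was possible and no p-value is given. The 95% intervals cover counting error only, and it is not stated if molecular identifiers were used. The labelled source was checked with short lists of miRNAs known from cells that shed vesicles into blood. None of their members was at the floor. The 6 erythroid miRNAs made up 30.5% of control EVs and 22.2% of iFIRKO EVs, and the 3 liver miRNAs 12.1% and 20.2%. The 2 miRNAs of platelets and endothelium made up 5.00% and 3.75%, the 3 muscle miRNAs 1.07% and 0.983%, and the 4 adipose miRNAs 0.302% and 0.339%. The part of these shifts in the values below was not tested.

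The most abundant passengers were let-7b-3p and let-7d-3p. let-7b-3p amounted to 1971 counts (516 CPM) in control EVs against 849 (380.1 CPM) in iFIRKO EVs, at a ratio of 0.736 (95% interval 0.679 to 0.798). let-7d-3p amounted to 1935 (507 CPM) against 1344 counts (602 CPM), at a ratio of 1.19 (1.11 to 1.27). In counts, these members were equal within counting error in control EVs and separate in iFIRKO EVs, where let-7d-3p was 1.58 times let-7b-3p (1.45 to 1.73). The arms are 21 or 22 bases long, but how evenly different sequences were captured was not tested, so an order of levels is one of counts only.

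let-7f-2-3p had the largest difference of the members. It amounted to 28 counts (7.33 CPM) in control EVs against 369 (165 CPM) in iFIRKO EVs, at a ratio of 22.5 (95% interval 15.3 to 34.4). It was the lowest of the 10 rows in control EVs, where it could not be told from let-7g-3p by counting error, and the fourth in iFIRKO EVs. let-7f-1-3p, the passenger of the other let-7f hairpin, amounted to 59 (15.5 CPM) against 54 counts (24.2 CPM), at a ratio of 1.56 (1.06 to 2.30). The row that differs from let-7f-2-3p by 1 base, let-7a-1-3p with let-7c-2-3p, amounted to 406 (106 CPM) against 252 counts (113 CPM), at a ratio of 1.06 (0.903 to 1.25). Its interval includes 1.

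let-7a-2-3p had the next largest ratio. It amounted to 388 counts (102 CPM) in control EVs against 651 (291.5 CPM) in iFIRKO EVs, at a ratio of 2.87 (2.53 to 3.26). let-7e-3p amounted to 61 (16.0 CPM) against 78 counts (34.9 CPM), at a ratio of 2.19 (1.54 to 3.11). let-7c-1-3p amounted to 244 (63.9 CPM) against 197 counts (88.2 CPM), at a ratio of 1.38 (1.14 to 1.67). These 3 members are the only ones that hold the letters CUAGCUUUC in their 3′ part. Their ratios were above 1 on the deposited scale, as were those of 88.1% of all miRNAs, and that of let-7c-1-3p was 0.763 with TMM scaling. Both the letters and the grouping were chosen after the values were seen, and 1 of 1585 other miRNAs searched (0.0631%) holds them on the strand of the mature RNA.

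The lowest ratio belonged to let-7i-3p. It amounted to 135 counts (35.4 CPM) in control EVs against 53 (23.7 CPM) in iFIRKO EVs, at a ratio of 0.671 (95% interval 0.479 to 0.929), just short of 1.5-fold lower. let-7g-3p amounted to 31 (8.12 CPM) against 22 counts (9.85 CPM), at a ratio of 1.21 (0.669 to 2.16), and a difference was not detectable at this depth. let-7b-3p, let-7d-3p, let-7g-3p and let-7i-3p hold the letters CUGCCUU, chosen in the same way, and had ratios from 0.671 to 1.21. These letters were found in 8 of the 1585 other miRNAs (0.505%). let-7f-1-3p differs from them only in the first letter and had a ratio of 1.56. Another run of letters in the 3′ part was also searched. The members that hold it, the let-7a-1-3p row and let-7f-2-3p, had ratios of 1.06 and 22.5. Members with shared 3′ letters thus did not always have like ratios.

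**Figure D1:**
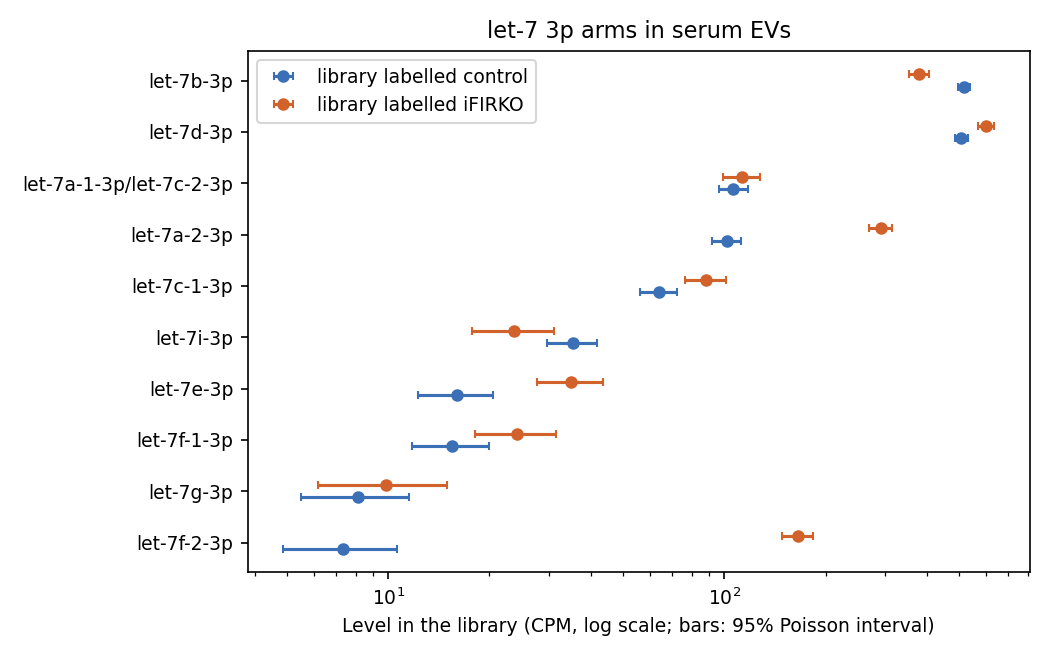
Level of each let-7 3p arm in CPM on a log axis in control EVs (blue) and iFIRKO EVs (orange), with 95% Poisson intervals of the counts. let-7f-2-3p moves from 7.33 to 165 CPM and let-7a-2-3p from 102 to 291.5 CPM, while let-7b-3p and let-7i-3p lie lower in iFIRKO EVs.

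At a 1.5-fold threshold, 4 of the 10 members were higher in iFIRKO EVs (let-7f-2-3p, let-7a-2-3p, let-7e-3p and let-7f-1-3p), against 66.3% of all 1847 miRNAs. No member was over 1.5-fold lower, against 3.03% of all miRNAs. These shares include miRNAs at the floor in 1 library, and of the 1736 above it in both 66.2% were higher and 1.21% lower. The median log2 ratio of the members was 0.37, against 0.88 for all miRNAs. On this scale the interval lay above 1 in 6 members and below 1 in 2, against 62.7% and 5.13% of the 1736. The direction depended on the scaling. With TMM factors, which divided each ratio by 1.81 (a shift of -0.85 on the log2 scale), 2 members were over 1.5-fold higher (let-7f-2-3p and let-7a-2-3p) and 4 were over 1.5-fold lower, against 21.0% and 19.5% of all miRNAs. With TMM scaling the ratio of let-7f-1-3p became 0.866. Scaling to miR-148a-3p, the reference miRNA of the study (a log2 shift of -0.22), left 3 higher and 2 lower members, against 54.2% and 5.52%, and the median of ratios left the same numbers, against 52.2% and 6.01%. let-7f-2-3p and let-7a-2-3p were over 1.5-fold higher with each scaling tried, with ratios of 12.5 and 1.59 under TMM.

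The ratio of a miRNA in these tables went with its abundance, so the members were also read beside miRNAs of like counts. Of the 4 members with a mean count of 10 to 100, let-7e-3p and let-7f-1-3p were over 1.5-fold higher, where 76.7% of 1350 miRNAs were. The ratio of let-7e-3p ranked 549 among these 1350, that of let-7g-3p 1222, and that of let-7i-3p 1344. Of the 4 members with a mean count of 100 to 1000, let-7f-2-3p and let-7a-2-3p were over 1.5-fold higher, where 47.0% of 302 miRNAs were. The ratio of let-7a-2-3p ranked 28 among the 302, and those of let-7c-1-3p and the let-7a-1-3p row 161 and 222. let-7f-2-3p is in this class only through its count in iFIRKO EVs, so its rank is given over all miRNAs. It ranked 51 of 1847, but 49 of the 50 larger ratios were from miRNAs at the floor in control EVs. Among the 1736 miRNAs with at least 10 counts in each library it ranked 2, after miR-6418-3p (42 and 736 counts, ratio 29.95, 95% interval 21.9 to 41.9). No member of these classes was over 1.5-fold lower, where 0.444% and 2.32% of the miRNAs were. Above 1000 counts, let-7d-3p ranked 19 and let-7b-3p 94 among 118 miRNAs, of which 2.54% were over 1.5-fold higher and 9.32% over 1.5-fold lower.

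**Figure D2:**
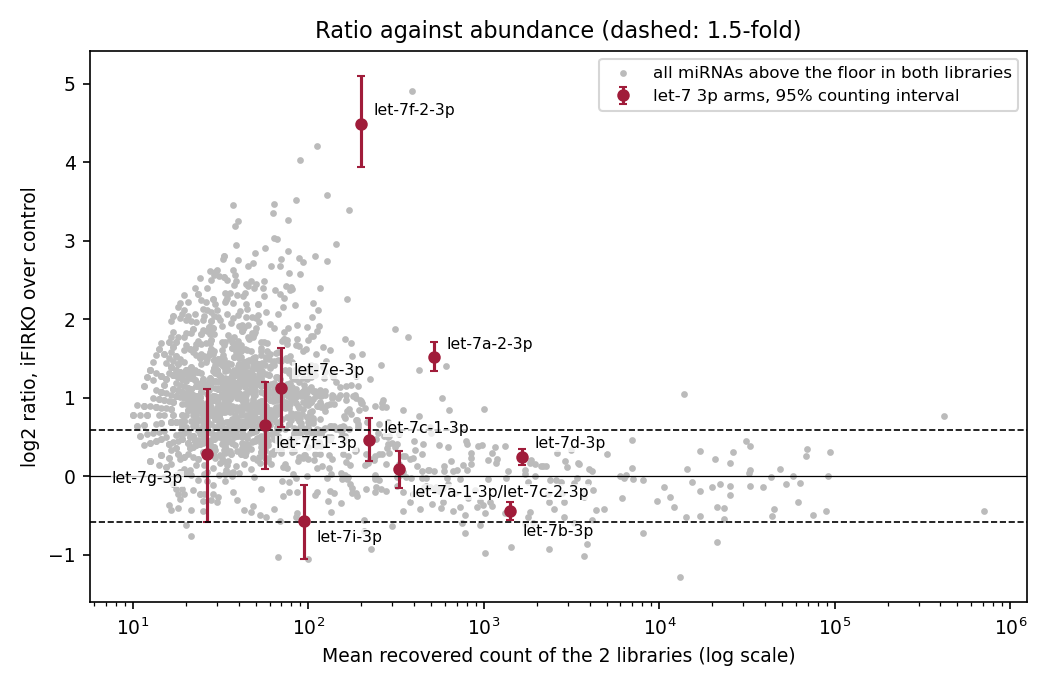
log2 ratio of iFIRKO EVs over control EVs against the mean recovered count (log axis) for all miRNAs above the floor in both libraries (grey) and the let-7 3p arms (red, 95% counting intervals), with dashed lines at 1.5-fold. let-7f-2-3p lies at a log2 ratio of 4.49 and let-7a-2-3p at 1.52, and the other members lie from -0.58 to 1.13.

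A list of 48 passenger arms of other hairpins common in blood was set beside the members. miR-100-3p reached 10 counts in control EVs and was at the floor in iFIRKO EVs, so no ratio is given for it. Of the other 47, 16 were over 1.5-fold higher and 2 over 1.5-fold lower in iFIRKO EVs, with a median log2 ratio of 0.43. The largest ratios of the list were those of miR-107-5p (25 and 40 counts, ratio 2.73, 95% interval 1.62 to 4.70), miR-103-1-5p (14 and 22 counts, ratio 2.69, 1.31 to 5.68) and miR-99a-3p (90 and 129 counts, ratio 2.45, 1.86 to 3.24). let-7f-2-3p lay above each of the 47 beyond counting error, while the interval of let-7a-2-3p overlapped those of these 3. The smallest ratios were those of miR-15b-3p (1160 and 409 counts, ratio 0.603, 0.537 to 0.675) and miR-16-2-3p (32293 and 10519 counts, ratio 0.557, 0.545 to 0.569). With the labels exchanged the latter would be 1.80. That is the direction which the study reports for this miRNA by quantitative PCR.

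The make-up of the let-7 passenger pool differed between the libraries. All 3p arms together amounted to 5258 counts (1377 CPM) in control EVs against 3869 (1732 CPM) in iFIRKO EVs, at a ratio of 1.26 (95% interval 1.21 to 1.31) that became 0.696 with TMM scaling. Without let-7f-2-3p and let-7a-2-3p, a choice made after the values were seen, the ratio of the remaining 8 rows was 1.01 (0.960 to 1.05). let-7b-3p made up 37.5% of the pool (36.2 to 38.8, Clopper-Pearson) in control EVs and 21.9% (20.7 to 23.3) in iFIRKO EVs. let-7a-2-3p made up 7.38% (6.69 to 8.12) and 16.8% (15.7 to 18.0), and let-7f-2-3p 0.533% (0.354 to 0.769) and 9.54% (8.63 to 10.5). let-7d-3p held 36.8% and 34.7%.

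**Figure D3:**
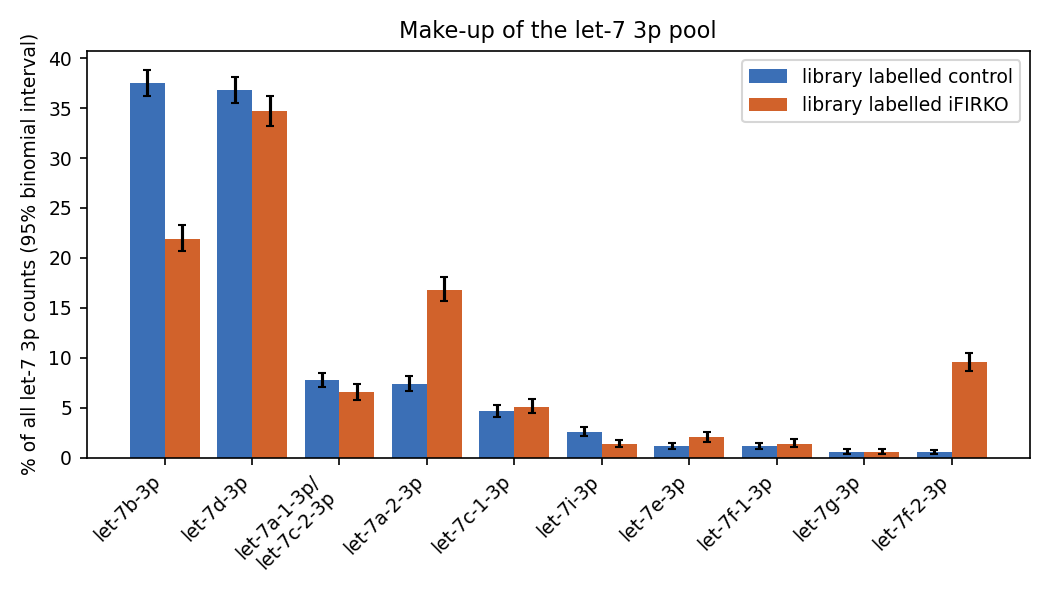
Share of each member in all let-7 3p counts of a library, in percent, with bars from 0 and 95% binomial intervals, for control EVs (blue) and iFIRKO EVs (orange). The share of let-7b-3p is lower in iFIRKO EVs (21.9% against 37.5%), and those of let-7a-2-3p (16.8% against 7.38%) and let-7f-2-3p (9.54% against 0.533%) are higher.

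Passenger and guide of a hairpin were then compared within each library, since the 3p:5p ratio does not depend on how a library is scaled. The arms could be matched in 7 groups of hairpins, with let-7a and let-7c as 1 group because of the shared row, and the let-7f hairpins as another. Over all groups the 3p arms made up 1.46% of 3p and 5p counts (95% interval 1.42 to 1.502) in control EVs and 1.81% (1.76 to 1.87) in iFIRKO EVs. The 3p:5p ratio was 1.24 times as high in iFIRKO EVs (1.19 to 1.30). Without let-7f-2-3p and let-7a-2-3p, chosen after the values were seen, it was 0.995 times as high. All 5p arms were kept in this value, so it is not the arm ratio of the remaining hairpins. Without both arms of the let-7f hairpins it was 1.17 times as high (1.12 to 1.22).

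The groups differed widely in how much passenger they held. let-7d had the highest 3p share, 19.0% (18.2 to 19.7) in control EVs and 25.2% (24.1 to 26.4) in iFIRKO EVs. Its 3p:5p ratio was 1.44 times as high (1.33 to 1.56). The guide let-7d-5p had a ratio of 0.824 (0.793 to 0.855) on the deposited scale, against 1.19 for let-7d-3p. let-7i had the lowest share, 0.117% (0.0983 to 0.139) and 0.0784% (0.0587 to 0.103). There the 3p:5p ratio was 0.669 times as high in iFIRKO EVs (0.477 to 0.925), with 115041 and 67542 counts of let-7i-5p. let-7b had 2.65% (2.53 to 2.77) and 1.96% (1.83 to 2.10), with a 3p:5p ratio 0.736 times as high (0.678 to 0.799).

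The arm ratio of let-7f differed most. The 3p share was 0.232% (0.186 to 0.286) in control EVs and 1.46% (1.32 to 1.60) in iFIRKO EVs, so that the 3p:5p ratio was 6.37 times as high (5.04 to 8.12). With let-7f-1-3p alone as the passenger it was 1.20 times as high (0.813 to 1.76), and with let-7f-2-3p alone 17.3 times (11.7 to 26.4). let-7f-2-3p made up 32.2% of the let-7f 3p counts (22.6 to 43.1, 28 of 87 counts) in control EVs and 87.2% (83.7 to 90.3, 369 of 423 counts) in iFIRKO EVs. The guide let-7f-5p had 37435 and 28576 counts, so even in iFIRKO EVs there were 77.4 guide counts for each count of let-7f-2-3p.

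In the group of let-7a and let-7c the 3p share was 1.04% (0.976 to 1.10) and 1.88% (1.77 to 1.99), and the 3p:5p ratio was 1.83 times as high (1.68 to 1.99). Without let-7a-2-3p, but with both guides kept, it was 1.19 times as high (1.05 to 1.35). let-7a-2-3p made up 37.4% of the 3p counts of this group (34.4 to 40.4) in control EVs and 59.2% (56.2 to 62.1) in iFIRKO EVs. let-7e had 3.08% (2.36 to 3.93) and 5.47% (4.35 to 6.78), with a ratio 1.82 times as high (1.28 to 2.61). let-7g had 0.154% (0.104 to 0.218) and 0.267% (0.168 to 0.405), and the interval of its 1.74-fold difference (0.960 to 3.11) included 1. This difference is not one of the passenger alone. The guide let-7g-5p had a ratio of 0.697 (0.679 to 0.715) on the deposited scale, against 1.21 for let-7g-3p. The guides let-7a-5p (1.13), let-7c-5p (0.932) and let-7e-5p (1.20) lay nearer to 1.

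**Figure D4:**
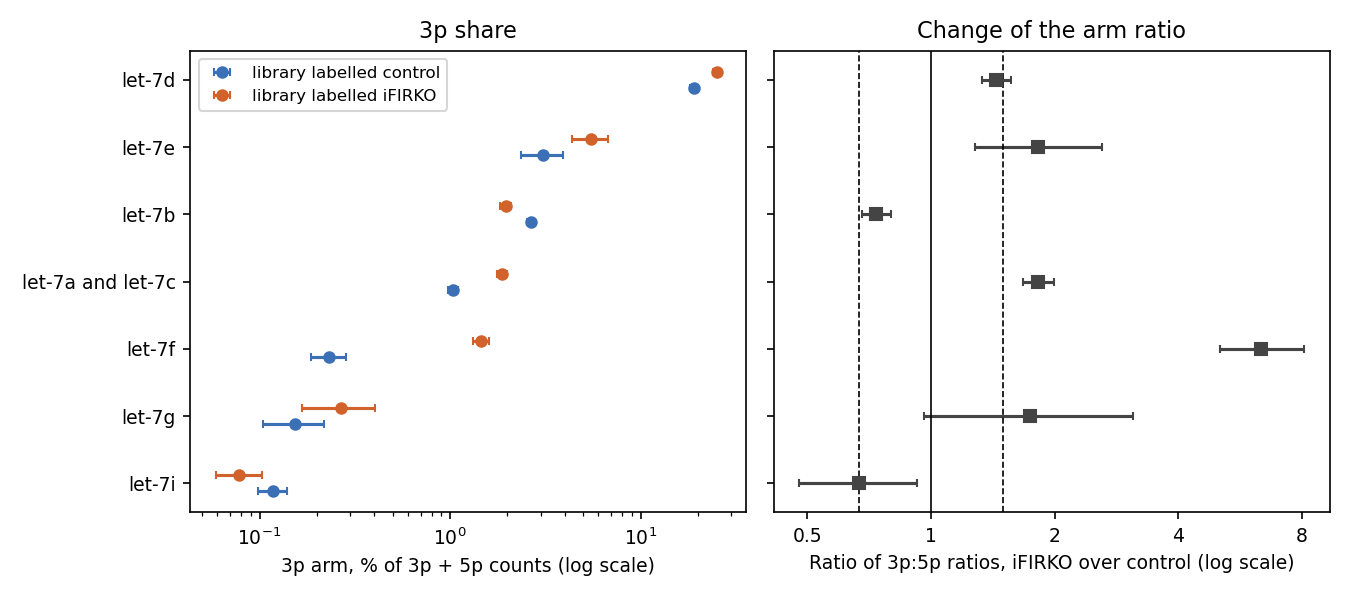
Left, share of the 3p arm in 3p and 5p counts of each hairpin group, in percent on a log axis, for control EVs (blue) and iFIRKO EVs (orange). Right, ratio of the 3p:5p ratios, iFIRKO over control, on a log axis with dashed lines at 1.5-fold in either direction, and bars for 95% counting intervals in both panels. let-7f lies farthest from 1, at 6.37, and let-7b (0.736) and let-7i (0.669) lie below 1.

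The 3p:5p ratio was over 1.5-fold higher in 4 of the 7 groups (let-7a with let-7c, let-7e, let-7f and let-7g), against 23.2% of the 637 hairpin groups of the tables with both arms above the floor, the let-7 groups included. None of the 7 was over 1.5-fold lower, against 21.8%, and let-7i lay just short of it. Read as minor over major arm in hairpins whose minor arm was under 20% of the counts, 40.2% of 204 groups were over 1.5-fold higher and 8.33% over 1.5-fold lower. With a mean count of the minor arm of at least 100 it was 30.6% and 4.08% of 49. A 3p:5p ratio at least 6.37 times as high, as in let-7f, was found in 5 of the 637 groups. The other 4, named after their values were seen, were miR-129b (6.49), miR-134 (8.27), miR-7027 (8.35) and miR-6418 (16.5). Of these 4, only miR-134 had the 3p arm as its minor arm, as let-7f did. In miR-129b, miR-7027 and miR-6418 the 5p arm was the minor one, so the higher arm there was the major one. The mean count of the minor arm was 76.0 or less in each of the 4, against 255 in let-7f. That of let-7f is the mean of 87 counts in control EVs and 423 in iFIRKO EVs. It passes the limit of 100 only through iFIRKO EVs. In miR-421 alone the 3p:5p ratio was lower by at least as much, at 0.151 times. Its minor arm was the 5p arm, with a mean count of 23.5. Read as minor over major arm, miR-421 was therefore 6.62 times as high, the same direction as let-7f. In that reading only miR-421 and miR-134 had a change at least that of let-7f.

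Members that lie in a cluster were also set side by side. On chromosome 13 the ratios were 1.56 for let-7f-1-3p, 1.19 for let-7d-3p and 1.06 for the shared row of let-7a-1-3p, with overlapping intervals. On chromosome 15 let-7b-3p (0.736) and the row that holds let-7c-2-3p (1.06) had intervals that did not overlap, but that row also counts let-7a-1-3p. On chromosome X the hairpin next to let-7f-2, miR-98, had 102 and 52 counts of miR-98-3p, a ratio of 0.871 (95% interval 0.612 to 1.23), and 809 and 442 counts of miR-98-5p, a ratio of 0.934 (0.830 to 1.05). The 3p:5p ratio of miR-98 was 0.933 times as high in iFIRKO EVs (0.642 to 1.34), and this interval does not overlap that of let-7f. miR-100-5p, whose hairpin lies 5211 bases from let-7a-2, had 506 and 325 counts and a ratio of 1.10 (0.952 to 1.27). Also listed near let-7a-2, miR-125b-5p had 50704 and 26839 counts and a ratio of 0.905 (0.892 to 0.918). The passenger miR-125b-1-3p had 94 and 85 counts and a ratio of 1.55 (1.14 to 2.10). Next to let-7c-1, miR-99a-5p had 2358 and 1531 counts and a ratio of 1.11 (1.04 to 1.18), while its passenger miR-99a-3p is given above. Next to let-7e, miR-125a-5p had a ratio of 1.05 (1.04 to 1.07) and its passenger miR-125a-3p, with 88 and 86 counts, a ratio of 1.67 (1.23 to 2.28). Also listed near let-7e, miR-99b-5p had 1289 and 923 counts and a ratio of 1.22 (1.12 to 1.33). Its passenger miR-99b-3p had 362 and 281 counts and a ratio of 1.33 (1.13 to 1.56). The neighbours given here were listed by hand. The search by position returned each within 10000 bases on the same strand, except miR-99b and miR-125b. For these the distance was not established here, so their absence from the search is not a statement of where they lie.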

How the data were processed

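Total RNA of serum EVs was made into libraries with the QIAseq miRNA Library Kit and analysed by the authors on the GeneGlobe Data Analysis Center (build mm10 per the submitters' processing notes). The aligner, the annotation release and the use of molecular identifiers are not given in the sources used here. The deposited signal of each table is a count divided by 1 constant of the library. Whole counts were recovered for 100.0% of the values within rounding (0.01 counts, or the precision of the deposited digits).

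Ratios are iFIRKO over control, taken from the deposited values without a pseudocount, with a 1.5-fold threshold. Intervals at the 95% level are Clopper-Pearson intervals of the share of 1 library in both counts, exact binomial or Poisson intervals, or conditional intervals of an odds ratio (SciPy 1.17.1, Python 3.11.15), checked on simulated data. TMM factors came from edgeR 4.0.16 in R 4.3.3. Hairpin groups were formed by name, with numbered copies pooled. The members, the lists and the alternatives were chosen with earlier results of these data known. Named were all members, their 5p arms, miR-98, miR-148a-3p and the 3 largest and 3 smallest ratios of the passenger list. Likeness over samples was not computed with 2 libraries. Alternatives were scalings, 1 CPM added, count minimums of 10 and 100, a 2-fold threshold and sums without single members.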

Additional observations from a re-analysis of the deposited data

How the results depend on the processing

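No paired analysis was possible because only 1 library per genotype exists here, and for that reason none could be left out. No member was at the floor, so setting floor values to 10 counts would change none of them. Equal totals and 1 CPM added left each member ratio within its counting interval. With the median of ratios 3 members were over 1.5-fold higher and 2 lower, the median log2 ratio of the members was 0.11 and the ratio of the summed 3p arms was 1.05. With miR-148a-3p as reference 2 members were lower and the summed ratio was 1.08. With TMM 2 were higher and 4 lower, the median log2 ratio was -0.48, the summed ratio was 0.696, and let-7f-1-3p went from 1.56 to 0.866. These shifts follow from 1 factor applied to all miRNAs. Restricting to mean counts from 100 upward left 2 higher members, because fewer were tested. A 2-fold threshold left 1 hairpin group with a higher 3p:5p ratio, let-7f, in place of 4. Without let-7f-2-3p the summed ratio was 1.14 and the ratio of the 3p:5p ratios, with all 5p arms kept, 1.13. Without let-7a-2-3p as well, chosen after seeing the data, they were 1.01 and 0.995. Without the let-7f hairpins the latter was 1.17, and as a median over the groups, in which abundant hairpins weigh no more than others, it was 1.74. Depth limits let-7g-3p most, and after it let-7f-2-3p, whose ratio rests on 28 counts in control EVs, and let-7f-1-3p.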

Other observations

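The tables also list let-7j and let-7k, family members named without an arm, which were looked at after the values were seen. RefSeq gives let-7k the 5p seed of the family. let-7j amounted to 483 counts (126.5 CPM) in control EVs against 207 (92.7 CPM) in iFIRKO EVs, at a ratio of 0.733 (95% counting interval 0.620 to 0.864). let-7k amounted to 127 (33.3 CPM) against 90 counts (40.3 CPM), at a ratio of 1.21 (0.914 to 1.60), and its interval includes 1.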
